A study of Mus musculus with 8 samples.

Results

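Chemokine ligands are small secreted proteins that attract leukocytes. The 32 mouse chemokine ligand genes described here were taken by symbol from a table of 20943 genes measured by poly-A RNA sequencing in 8 malignant peripheral nerve sheath tumors, which are sarcomas of the Schwann cell lineage. All 32 were in the table and were tested, and no filter on low values was applied. They are grouped here by the cells they are best known to recruit.

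Every tumor arose in a mouse carrying Plp-CreERT, a recombinase that tamoxifen activates in Schwann lineage cells, together with floxed Nf1 and floxed Cdkn2a, and the labels give both genes as deleted. Tamoxifen, 0.4 mg, was given on days 0 to 3 of life. The 5 PRC2 wildtype tumors have no further allele, and the 3 PRC2 loss tumors also had floxed Eed, given as deleted, whose product is needed for the histone methylation by Polycomb repressive complex 2 (PRC2). The cells around the Schwann lineage, including the leukocytes and vessels, are therefore not the intended targets of the recombinase. The sources used here do not give strain, sex or age at collection. In the PRC2 loss group, tumor 1 is labelled with the right paraspinal nerve of one mouse code, whereas tumors 2 (left) and 3 (right) are labelled with the sciatic nerves of another. The wildtype labels say only tumor and name no nerve, so the wording of the sample labels differs exactly as the genotype does, and sampling site and genotype cannot be told apart. Wildtype tumors 1 and 2 share an animal code, as do wildtype tumors 3 and 4, which leaves 3 codes among wildtype and 2 among PRC2 loss tumors. Where tumors with 1 code come from 1 mouse, p-values that treat them as independent are too small.

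Chemokines bind receptors with 7 transmembrane helices on leukocytes and set up gradients that guide the cells out of vessels and through tissue. The spacing of the first cysteines names the CC, CXC, CX3C and XC classes. Inflammatory members are switched on by cytokines through NF-kB and interferon signaling, largely in macrophages, dendritic cells, fibroblasts and endothelium, while homeostatic members are made constantly by stromal cells. In nerve tumors as in other solid tumors, Ccl2 is best known as a signal for monocytes, Cxcl9 and Cxcl10 for cytotoxic T cells, and Ccl22 for regulatory T cells.

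The values are quantile-normalized log2 gene counts as deposited, and sequencing depth is unknown. They are not scaled by transcript length, so levels are compared between tumors and not between genes. Eed itself was lower in every PRC2 loss tumor, at 8.89 ± 0.11 (SD, n = 3) against 10.25 ± 0.08 (SD, n = 5). Sox10, a defining factor of the Schwann lineage, was above 0 in all 8 tumors, from 7.07 to 12.57. Its level was not alike in the groups: each of 7 listed Schwann cell markers, Sox10 among them, had a higher mean in PRC2 loss, by at least 2.83 log2 units. Between 2686 and 3372 genes were listed at 0 in a wildtype tumor and between 1822 and 2113 in a PRC2 loss tumor. In a dissected tumor, fewer cells of a type and less RNA per cell cannot be told apart.

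Chemokine ligand transcripts were lower in PRC2 loss tumors for 14 of the 32 genes, and none was higher, by limma's moderated test with Benjamini-Hochberg adjustment over 20807 genes at a threshold of 0.05. The share called lower was 43.8%, against 19.6% of all genes tested, and the share called higher was 0, against 16%; counting either direction, 35.7% of all genes were called. At an unadjusted p below 0.05, 18 ligands were lower and 1 was higher. The median log2 difference of the ligands was -1.49, against -0.12 for all genes tested. The 14 genes called lower were also the 14 for which every PRC2 loss tumor lay below every wildtype tumor, a pattern found for 21.4% of all genes, while 38.3% had groups that did not overlap in either direction. Averaging tumors by animal number left 11 ligands lower, without Ccl9, Ccl4 and Ccl5, and none higher. Under that averaging 2113 of the 20807 genes were lower and 2113 higher, against 4087 and 3337 without it. The fall was largest for Ccl22. Genes called lower included most ligands of monocytes, both CCR4 ligands, the B cell ligand Cxcl13, the neutrophil ligand Cxcl2 and the dendritic cell ligand Xcl1. The CXCR3 ligands, the CCR7 ligands, the other 4 neutrophil ligands, the eosinophil and epithelial ligands and the stromal ligands Cxcl12 and Cxcl14 did not pass the test.

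Of the 6 ligands that recruit monocytes and macrophages, 4 fell. Ccl2, the main ligand of the monocyte receptor CCR2, stood at 10.97, 9.89, 10.01, 10.52 and 11.02 in wildtype tumors 1 to 5 and fell to 5.40, 7.31 and 7.73 across PRC2 loss tumors 1 to 3. The groups were separated by a wide gap, and PRC2 loss tumor 1 was the lowest. The log2 difference of Ccl2 was -3.67 (SE 0.529), or 12.7-fold lower, with limma adjusted p = 0.00155. Ccl7, a second CCR2 ligand encoded next to Ccl2, read 10.96, 10.74, 9.86, 10.58 and 10.66 in wildtype and 4.45, 7.65 and 8.04 in PRC2 loss. It was nearly flat among wildtype tumors and spread widely among PRC2 loss tumors, again with tumor 1 lowest. Its difference of -3.84 (SE 0.742) had limma adjusted p = 0.00538. Ccl8, which in the mouse acts mainly on CCR8, read 12.23, 12.40, 11.35, 11.53 and 11.30 in wildtype and 8.50, 9.69 and 8.76 in PRC2 loss, a difference of -2.78 (SE 0.352, limma adjusted p = 0.000946). Its spread was alike in both groups, at an SD of 0.52 (n = 5) and 0.62 (n = 3).

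The other 3 monocyte ligands moved less. Ccl9, a CCR1 ligand of myeloid cells, read 10.85, 11.37, 10.17, 10.19 and 10.62 in wildtype and 9.61, 9.40 and 9.18 in PRC2 loss. The gap between its groups was small, and the difference was -1.24 (SE 0.279, limma adjusted p = 0.00997). Without PRC2 loss tumor 3 its limma adjusted p was 0.0519, and averaging tumors by animal number gave 0.0514. Its neighbour Ccl6, another CCR1 ligand, had a wildtype mean of 10.81 ± 0.78 (SD, n = 5) and a PRC2 loss mean of 10.19 ± 0.13 (SD, n = 3), with overlapping groups, and was not called (limma adjusted p = 0.266). Ccl12, a mouse CCR2 ligand, did not pass either, at 9.42 ± 0.69 (SD, n = 5) and 8.42 ± 0.72 (SD, n = 3) (limma adjusted p = 0.114).

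All 3 inflammatory CC ligands listed as drawing monocytes, T cells and NK cells fell. Ccl3 read 7.01, 7.11, 5.23, 6.47 and 6.12 in wildtype and 3.80, 4.38 and 3.62 in PRC2 loss, and its difference was -2.45 (SE 0.523, limma adjusted p = 0.00804). Ccl4, encoded beside it, read 7.17, 7.07, 5.48, 6.85 and 5.65 in wildtype and 1.17, 4.50 and 3.94 in PRC2 loss, where tumor 1 was far below the other two. Wildtype tumors 1 and 2 were the highest for both genes. The difference of Ccl4 was -3.24 (SE 0.827, limma adjusted p = 0.0170), and averaging tumors by animal number raised the adjusted p to 0.0712. With a pseudocount of 16 the difference of Ccl4 was -1.90. Ccl5, which activated T and NK cells also secrete, read 10.65, 12.13, 9.56, 10.02 and 9.34 in wildtype and 6.63, 8.95 and 8.54 in PRC2 loss. Its groups lay close together, with the highest PRC2 loss tumor just under the lowest wildtype tumor. The difference of -2.30 (SE 0.723, limma adjusted p = 0.0377) did not hold when wildtype tumor 1, 3 or 4 or any PRC2 loss tumor was left out, with limma adjusted p from 0.0539 to 0.159.

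Both ligands of CCR4, the receptor of regulatory and Th2 T cells, fell by more than most members. Ccl22, made largely by dendritic cells and macrophages, read 9.17, 10.78, 9.08, 9.47 and 8.81 in wildtype and 3.11, 3.98 and 4.15 in PRC2 loss. No other ligand had so wide a gap between its groups, and it was 52.5-fold lower (log2 difference -5.72, SE 0.486, limma adjusted p = 0.000215). Ccl17 read 6.19, 10.10, 6.16, 6.70 and 7.79 in wildtype and 2.76, 3.59 and 3.68 in PRC2 loss, a difference of -4.04 (SE 0.905, limma adjusted p = 0.00991). Wildtype tumor 2 held the highest value of both genes and stood well apart from the other wildtype tumors for Ccl17.

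Among ligands of lymphoid tissue, Cxcl13, which draws B cells through CXCR5, fell while the CCR7 ligands did not pass the test. Cxcl13 read 8.62, 10.78, 8.95, 8.65 and 9.36 in wildtype and 3.11, 6.50 and 6.22 in PRC2 loss. Every wildtype tumor lay more than 2 log2 units above every PRC2 loss tumor, and the difference was -4.00 (SE 0.827, limma adjusted p = 0.00714). Ccl19, a dendritic cell and T cell attractant, was low in both groups at 3.90 ± 1.68 (SD, n = 5) and 2.54 ± 0.92 (SD, n = 3) (limma adjusted p = 0.309). Ccl21a, the lymphatic endothelial ligand of CCR7, read 5.55, 8.81 and 10.24 in PRC2 loss tumors 1 to 3 and between 7.71 and 9.08 in wildtype. PRC2 loss tumor 1 was below and tumor 3 above every wildtype tumor, and the limma adjusted p was 0.829. Close copies of Ccl21a exist in the mouse genome and can share its reads, so its values are uncertain.

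Of the 5 listed neutrophil ligands 1, Cxcl2, fell. Cxcl1, Cxcl2, Cxcl3 and Cxcl5 act on CXCR2. Cxcl2 was low in both groups, at 2.88, 4.23, 3.27, 3.05 and 3.51 in wildtype and 0.33, 1.85 and 1.18 in PRC2 loss. The groups did not overlap, and the difference was -2.27 (SE 0.471, limma adjusted p = 0.00720). With a pseudocount of 16 on the linear scale this difference shrank to -0.55, still past the threshold. Cxcl5 read 8.11, 9.61, 10.45, 8.82 and 7.64 in wildtype and 2.87, 5.27 and 8.55 in PRC2 loss. PRC2 loss tumor 3 lay inside the wildtype range and the other two far below it, and the log2 difference of -3.36 (SE 1.18) missed the threshold (limma adjusted p = 0.0551). Leaving out PRC2 loss tumor 3 brought Cxcl5 past it, at -4.86 (limma adjusted p = 0.0147). Cxcl1 followed the same order in PRC2 loss, at 3.43, 3.64 and 5.69, against 5.61 ± 0.55 (SD, n = 5) in wildtype (limma adjusted p = 0.126 with all tumors and 0.0250 without PRC2 loss tumor 3). Cxcl3 and Cxcl15 were near the floor. Cxcl3 reached 2.85 at most, with a limma adjusted p of 0.0890 and, without wildtype tumor 4, 0.0138. Cxcl15 was listed at 0 in 3 wildtype tumors and at 5.19 and 3.46 in the other two (limma adjusted p = 0.382).

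The upstream sequences of Cxcl1, Cxcl2 and Cxcl3 are shown because the 3 genes share a match to the NF-kB consensus close to the start of transcription. Each run is the 250 bases before the RefSeq start on GRCm38.p6, read 5′ to 3′ on the gene's own strand, and capitals mark motif matches. For these genes the windows are chr5:90890995-90891244, chr5:90903649-90903898 and chr5:90785851-90786100, all on the plus strand.
Cxcl1: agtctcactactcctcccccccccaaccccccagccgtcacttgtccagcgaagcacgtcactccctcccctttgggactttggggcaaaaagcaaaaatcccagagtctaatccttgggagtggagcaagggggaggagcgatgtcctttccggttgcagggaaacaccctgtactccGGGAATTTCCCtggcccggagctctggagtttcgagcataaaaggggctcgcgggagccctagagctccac
Cxcl2: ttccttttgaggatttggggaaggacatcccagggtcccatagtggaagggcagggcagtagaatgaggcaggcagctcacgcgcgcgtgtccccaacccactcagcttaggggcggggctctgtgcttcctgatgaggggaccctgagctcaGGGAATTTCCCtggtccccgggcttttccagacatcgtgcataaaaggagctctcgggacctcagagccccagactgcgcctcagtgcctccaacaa
Cxcl3: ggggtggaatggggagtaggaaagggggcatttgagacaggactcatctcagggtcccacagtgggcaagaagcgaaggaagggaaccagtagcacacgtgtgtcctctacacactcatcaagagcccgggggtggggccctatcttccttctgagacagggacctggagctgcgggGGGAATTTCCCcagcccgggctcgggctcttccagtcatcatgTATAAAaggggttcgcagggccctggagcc
The consensus matched each promoter on both strands with the matches offset by 1 base, and these overlap into a single run of 11 bases. That run begins 71 bases before the start in Cxcl1, 97 in Cxcl2 and 73 in Cxcl3. The last capitals in Cxcl3 are the TATA box letters TATAAA, 30 bases before the start. A match describes the letters in the window and does not show that a factor binds there.

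The CXCR3 ligands Cxcl9, Cxcl10 and Cxcl11, which interferon induces and which draw activated T and NK cells, did not pass the test. Cxcl10 read 11.58, 11.82, 9.73, 10.62 and 7.62 in wildtype and 7.84, 8.05 and 7.30 in PRC2 loss. Wildtype tumors 1 to 4 lay above all PRC2 loss tumors and wildtype tumor 5 lay among them, and the limma adjusted p was 0.0517 (log2 difference -2.55, SE 0.876) with all tumors and 0.00535 without wildtype tumor 5. Cxcl9 read 11.08 and 12.63 in wildtype tumors 1 and 2 and 8.14, 8.52 and 8.34 in wildtype tumors 3 to 5, against 7.52, 8.91 and 8.58 in PRC2 loss. Only wildtype tumors 1 and 2 were high, and the groups overlapped (limma adjusted p = 0.333). Without those 2 tumors, which share an animal number, the log2 difference of Cxcl9 was 0.00031. Cxcl11 was low, at 4.80, 4.90 and 4.43 in PRC2 loss and from 0 to 5.19 in wildtype (limma adjusted p = 0.320).

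The Cxcl10 promoter, 250 bases at chr5:92348890-92349139 on the minus strand of GRCm38.p6, is shown because it held matches to motifs of both inducing pathways.
Cxcl10: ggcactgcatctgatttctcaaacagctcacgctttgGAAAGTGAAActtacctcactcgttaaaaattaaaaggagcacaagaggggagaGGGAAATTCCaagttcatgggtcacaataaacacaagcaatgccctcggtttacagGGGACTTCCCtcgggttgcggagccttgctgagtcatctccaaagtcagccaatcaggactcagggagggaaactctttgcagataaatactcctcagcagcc
The first capitals match the interferon response motif (GAAA, any 2 bases, GAAA, abbreviated ISRE) and begin 213 bases before the start. The other two match the NF-kB consensus and begin 159 and 103 bases before the start.

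The transmembrane ligands Cxcl16 and Cx3cl1 and the XC ligand Xcl1 all fell. Xcl1, which NK cells and activated T cells secrete to attract cross-presenting dendritic cells, read 7.10, 8.36, 6.66, 7.78 and 6.68 in wildtype and 0.33, 3.02 and 2.69 in PRC2 loss. It was near the floor in PRC2 loss tumor 1 and low in the other two, a difference of -5.30 (SE 0.722), or 39.4-fold lower, with limma adjusted p = 0.00123. Because its PRC2 loss values are near the floor, the size depends on the unknown offset: with a pseudocount of 16 it was -3.07, smaller than the falls of Ccl22 (-4.60), Ccl7 (-3.53), Ccl2 (-3.45) and Cxcl13 (-3.36) on that scale, and still past the threshold. Cxcl16, the ligand of CXCR6 on T and NK cells, read 11.51, 12.57, 10.98, 11.61 and 11.29 in wildtype and 9.18, 10.19 and 9.87 in PRC2 loss (log2 difference -1.85, SE 0.363, limma adjusted p = 0.00580). The groups stood apart by less than 1 log2 unit. Cx3cl1, a ligand for microglia, monocytes and NK cells that endothelium and neurons make, read 12.20, 12.62, 12.40, 10.71 and 11.70 in wildtype and 9.66, 10.59 and 10.67 in PRC2 loss. Wildtype tumor 4 almost touched the PRC2 loss tumors. Its difference of -1.62 (SE 0.440, limma adjusted p = 0.0216) did not hold without wildtype tumor 1 or 3 or any PRC2 loss tumor, with limma adjusted p from 0.0534 to 0.102.

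The stromal ligands Cxcl12 and Cxcl14, the eosinophil ligands and the ligands for lymphocytes that home to epithelia did not pass the test. Cxcl12, the CXCR4 ligand of fibroblasts and perivascular cells, read 14.53, 14.68, 14.46, 12.68 and 13.74 in wildtype and 13.56, 14.67 and 14.78 in PRC2 loss, with full overlap (log2 difference 0.32, SE 0.495, limma adjusted p = 0.636; -0.017 without wildtype tumor 4). Cxcl14 spread from 9.75 to 14.54 in wildtype and from 11.27 to 13.13 in PRC2 loss, and wildtype tumors 1 and 2 were its highest wildtype values (limma adjusted p = 0.825). Ccl11, the eosinophil attractant eotaxin, stood at 10.27 ± 0.45 (SD, n = 5) and 10.75 ± 0.37 (SD, n = 3) (limma adjusted p = 0.212), and the second eosinophil ligand, Ccl24, at 4.21 ± 0.33 (SD, n = 5) and 4.35 ± 0.91 (SD, n = 3) (limma adjusted p = 0.846). Of the ligands for lymphocytes that home to epithelia, Ccl27a, a skin ligand of CCR10, read 8.63, 9.46 and 9.71 in PRC2 loss and from 7.81 to 8.79 in wildtype. Its log2 difference of 0.85 (SE 0.314) missed the threshold (limma adjusted p = 0.0641) and passed it once PRC2 loss tumor 1 was left out (0.0288). Ccl25, the CCR9 ligand of gut and thymus, read 6.11, 4.56 and 5.09 in PRC2 loss and from 6.02 to 7.18 in wildtype (limma adjusted p = 0.0612; 0.0290 without PRC2 loss tumor 1). Ccl20, the CCR6 ligand, was near the floor in every tumor, with a highest value of 1.23 (limma adjusted p = 0.474). Exons of Ccl25, Ccl27a, Cxcl10, Cxcl11, Cxcl16 and Xcl1 overlap annotated exons on the other strand, of Elavl1, Il11ra1, Art3, Gm2673, Zmynd15 and Gm20743 in that order, and Ccl27a has close copies. Strand use in counting is not given in the sources used here, so reads of the overlapping partners cannot be told apart.

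**Figure D1:**
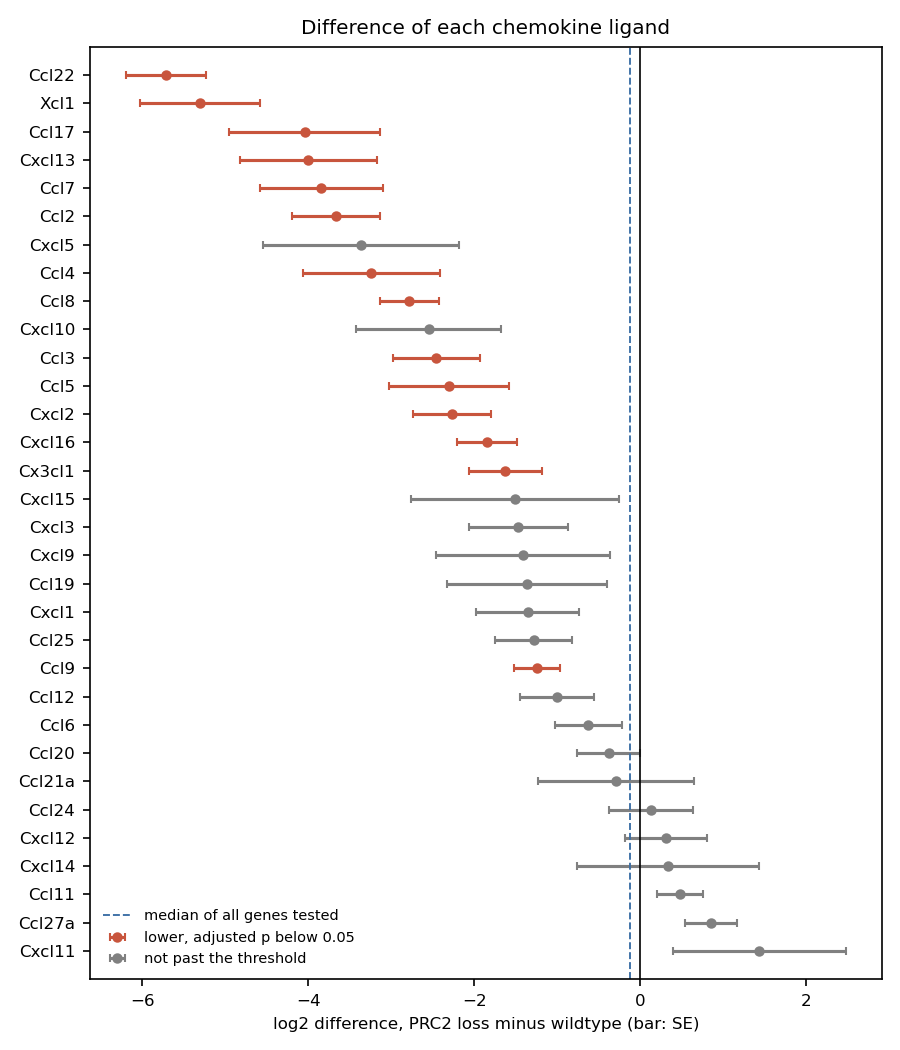
Log2 difference of each chemokine ligand, PRC2 loss minus wildtype (horizontal axis, points with bars of 1 SE from limma), in order of size, in red where the limma adjusted p is below 0.05; the dashed line is the median of all genes tested, -0.12. Ccl22 at -5.72 and Xcl1 at -5.30 lie farthest left, and 6 genes lie above 0, none of them past the threshold.

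Position along the chromosomes separated neighbours only in part. In mm10, Ccl2 (chromosome 11, 82035571 to 82037453), Ccl7 (82045712 to 82047525), Ccl11 (82057823 to 82062955), Ccl12 (82101845 to 82103400) and Ccl8 (82115185 to 82116799) follow each other. In that order the log2 differences were -3.67, -3.84, 0.48, -1.004 and -2.78, so that the eosinophil ligand Ccl11 and Ccl12, which did not pass the test, lie between genes that fell. Farther along chromosome 11, from 83525778 to 83664683, Ccl5, Ccl9, Ccl3 and Ccl4 fell and Ccl6, between Ccl9 and Ccl3, did not pass. On chromosome 8, the 3 neighbours Ccl22 (94745590 to 94751699), Cx3cl1 (94772009 to 94782427) and Ccl17 (94810453 to 94812036) all fell. Of the 9 ligands along chromosome 5 from Cxcl5 to Cxcl13, only Cxcl2 and Cxcl13 passed the test.

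**Figure D2:**
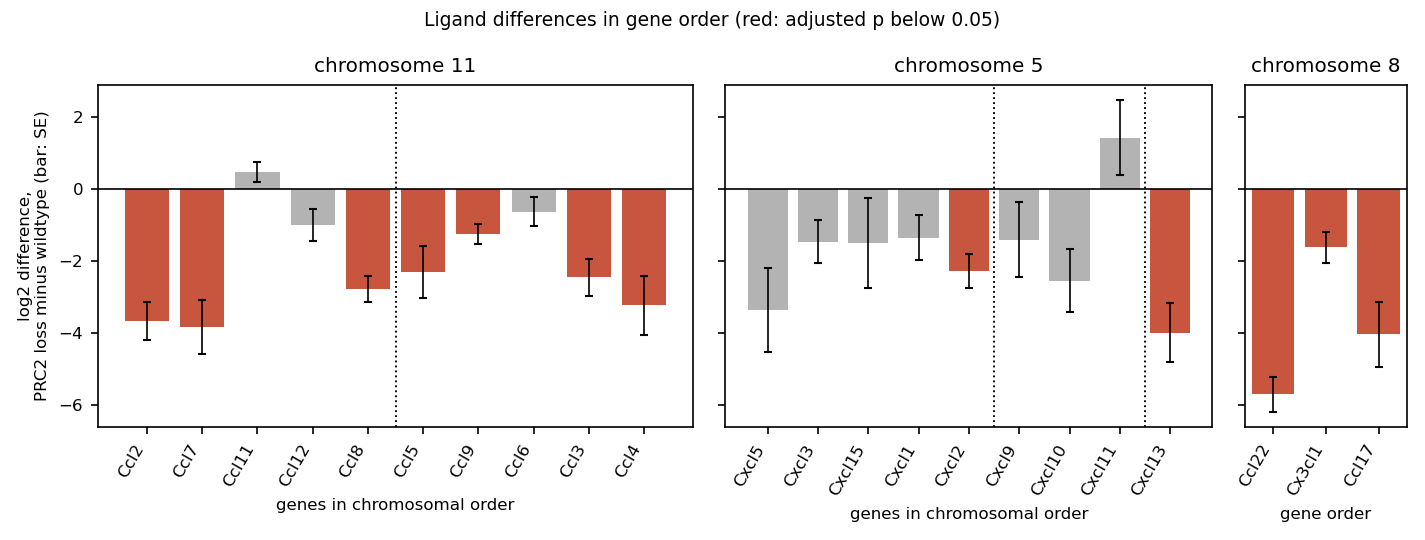
Log2 difference, PRC2 loss minus wildtype (vertical axis, bars from 0 with 1 SE from limma), of ligands in their order along 3 chromosomes; red bars have a limma adjusted p below 0.05 and dotted lines mark gaps of over 1 Mb. All 3 chromosome 8 genes are red, and grey Ccl11 at 0.48 stands between red Ccl7 and Ccl8.

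Promoter sequences from RefSeq on GRCm38.p6 matched 23 of the 32 ligand symbols and 26 start sites, compared here over the 250 bases before each start with 32841 promoters in all. The ligand promoters held a median of 4 CpG dinucleotides, against 6 over all promoters. The 9 of genes called lower held a median of 3, from 1 to 14, and the 17 of the other genes a median of 5, from 0 to 45. An NF-kB consensus match on either strand was found in 6 ligand promoters (23.1%), those of Cxcl1, Cxcl2, Cxcl3, Cxcl10, Ccl9 and Ccl20, against 3.90% of all promoters. Of these 6 genes, Cxcl2 and Ccl9 were called lower. The TATA box letters TATAAA, on either strand, were found in 9 ligand promoters (34.6%) and in 12.4% of all. The ISRE was found in 3 (11.5% against 2.98%). Share counts rest on few promoters and are given as a description.

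The promoters of Ccl8, which fell, and its neighbour Ccl12, which did not pass, are shown because they carry the same TATA letters at almost the same distance; the windows are chr11:82114935-82115184 and chr11:82101595-82101844, both on the plus strand.
Ccl8: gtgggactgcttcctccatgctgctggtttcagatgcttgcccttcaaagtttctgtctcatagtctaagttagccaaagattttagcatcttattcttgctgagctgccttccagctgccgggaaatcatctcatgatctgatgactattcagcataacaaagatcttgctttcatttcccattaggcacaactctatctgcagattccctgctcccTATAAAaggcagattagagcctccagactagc
Ccl12: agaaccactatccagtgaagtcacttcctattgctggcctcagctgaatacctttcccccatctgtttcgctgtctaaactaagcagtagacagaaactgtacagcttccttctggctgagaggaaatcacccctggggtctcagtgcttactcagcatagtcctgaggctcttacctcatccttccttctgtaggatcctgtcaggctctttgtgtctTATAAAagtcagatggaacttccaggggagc
In capitals, TATAAA begins 32 bases before the start in Ccl8 and 31 in Ccl12. No match to the NF-kB or ISRE motifs was found in these 2 windows.

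The ligands differed between tumors of the same group. PRC2 loss tumor 1 alone held the lowest value of its group for 22 of the 32 ligands (68.8%), against 32.4% of all genes tested, and for 12 of the 14 called lower. Wildtype tumor 2 alone held the highest wildtype value for 19 ligands (59.4%), against 23.3% of all genes, and for 11 of the 14. The mean over the ligands was 5.46, 6.55 and 6.64 in PRC2 loss tumors 1 to 3 and ran from 7.51 to 8.82 in wildtype. PRC2 loss tumors 2 and 3, which share an animal code and a nerve type, differed by a median of 0.41 log2 units per ligand, and tumor 1 differed from them by 0.97 and 1.01. The corresponding medians over all genes were 0.33, 0.33 and 0.42. Animal and nerve cannot be told apart in this group. Without PRC2 loss tumor 1, 13 ligands were lower and 1, Ccl27a, was higher, beside 3056 and 2646 of all 20807 genes tested. Without wildtype tumors 1 and 2 together, 11 ligands were lower and 0 higher, beside 4379 and 3344 of all genes.

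Most receptors that these ligands signal through were lower too. Of the 18 signaling receptors 10 fell, or 55.6% against 19.6% of all genes, and 0 rose (at an unadjusted p below 0.05, 15 and 0), with a median log2 difference of -2.19. Ccr7, the homing receptor of dendritic cells and naive T cells, read 9.45, 10.97, 8.94, 9.19 and 8.99 in wildtype and 3.51, 5.33 and 5.77 in PRC2 loss (log2 difference -4.64, SE 0.628, limma adjusted p = 0.00121). Its groups were well apart, with PRC2 loss tumor 1 lowest. Without that tumor 6 receptors were lower, beside 3056 of the 20807 genes tested. Averaging tumors by animal number also left 6, beside 2113 of all genes.

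Ligand and receptor calls matched for some axes and not for others. Both sides fell for Ccr4 (log2 difference -3.59) with Ccl17 and Ccl22, Cxcr6 (-2.21) with Cxcl16, Cx3cr1 (-1.96) with Cx3cl1, and Xcr1 (-3.62) with Xcl1. For 5 other receptors the receptor itself fell and no listed ligand passed: Ccr3 (-2.89) with Ccl11 and Ccl24, Ccr6 (-3.84) with Ccl20, Ccr7 with Ccl19 and Ccl21a, Ccr9 (-3.89) with Ccl25, and Ccr10 (-1.35) with Ccl27a. Several receptors were low in PRC2 loss: Ccr3 from 0 to 3.51, Ccr4 from 0.33 to 2.13 and Ccr6 from 0.33 to 2.94. Ccr9 ran there from 1.48 to 2.89 and Ccr10 from 1.85 to 2.54. The differences of these low receptors depend in size on the unknown offset. For 5 more receptors a ligand fell and the receptor did not pass: Ccr1 (log2 difference -0.85, limma adjusted p = 0.0917), Ccr2 (-1.78, 0.158), Ccr8 (-2.17, 0.0516), Cxcr2 (0.45, 0.658) and Cxcr5 (-2.80, 0.0917). For Ccr8 and Cxcr5 every PRC2 loss tumor still lay below every wildtype tumor, a pattern found for 21.4% of all genes. Ccr2 read 8.06, 11.42 and 11.006 in PRC2 loss and from 10.08 to 13.23 in wildtype, so its groups overlapped while those of its ligand Ccl2 did not. Cxcr3 (limma adjusted p = 0.0528) and Cxcr4 (0.0572) did not pass, nor did any of their ligands. Single tumors left out brought Cxcr3 (without wildtype 5, limma adjusted p = 0.0482), Cxcr4 (without wildtype 1, 0.0227) and Ccr8 (without wildtype 3 or 5, 0.0492 and 0.0382) past the threshold. Leaving out single tumors ended the calls of Ccr3 (limma adjusted p up to 0.0692), Ccr10 (0.0925), Cxcr6 (0.0939) and Cx3cr1 (0.0510). For Ccr3 these were PRC2 loss tumors 1 and 3, for Ccr10 every tumor but wildtype 4 and 5, for Cxcr6 wildtype 1 and PRC2 loss 1 and 2, and for Cx3cr1 PRC2 loss 1 and 3.

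**Figure D3:**
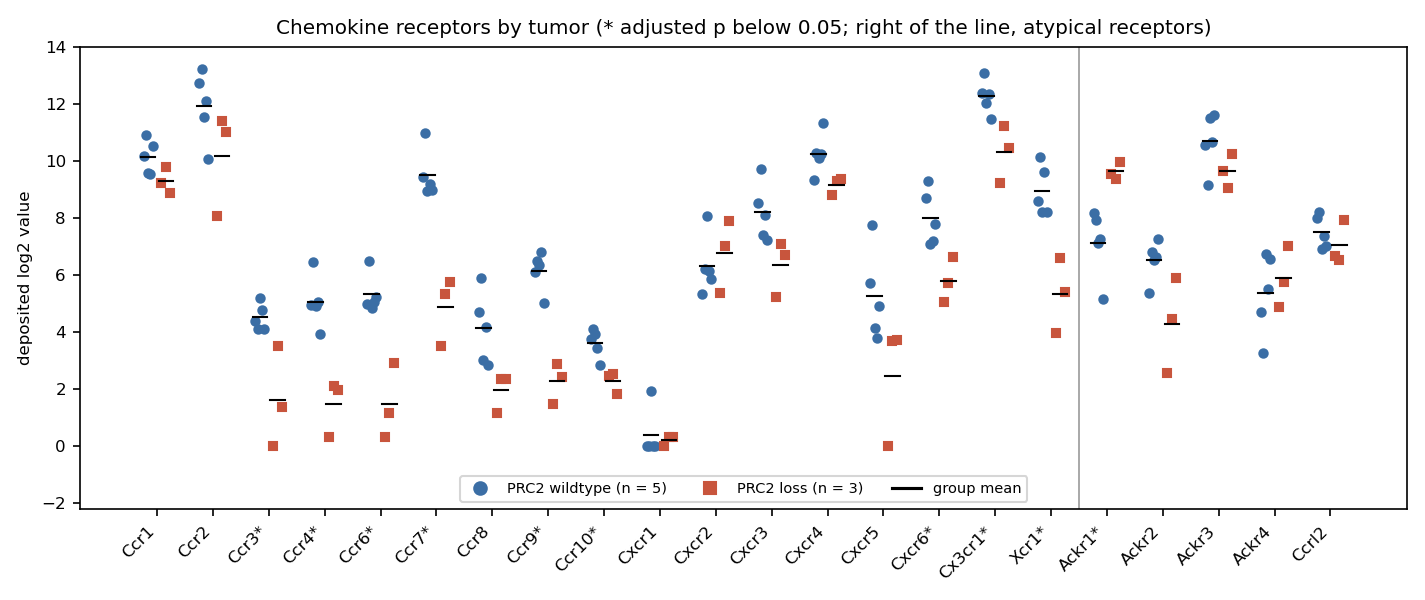
Deposited log2 value (vertical axis) of 17 signaling receptors and, right of the grey line, 5 atypical receptors in each tumor, with wildtype tumors as circles, PRC2 loss tumors as squares and bars at group means. Of the genes with an asterisk, which passed the test, 9 signaling receptors lie lower in PRC2 loss and Ackr1 lies higher.

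Atypical receptors bind chemokines without recruiting cells. Ackr1, the chemokine-binding receptor of venular endothelium and red cells, was the only gene of 5 to pass, and it rose. It read 8.16, 7.93, 7.12, 7.27 and 5.18 in wildtype and 9.55, 9.39 and 9.97 in PRC2 loss (log2 difference 2.51, SE 0.624, limma adjusted p = 0.0153). All PRC2 loss tumors were above all wildtype tumors. The call did not hold when any PRC2 loss tumor was left out (limma adjusted p from 0.0526 to 0.0725). Of 8 endothelial markers 5 (62.5%, against 16% of all genes) rose, among them Emcn (2.41), Cdh5 (2.11) and Vwf (2.75), with list means from 9.58 to 10.11 in wildtype and from 11.05 to 11.89 in PRC2 loss and no marker at 0, and their part in the rise of Ackr1 was not tested. Ackr2, which removes inflammatory CC ligands, had a limma adjusted p of 0.0503, which was 0.0473 without wildtype tumor 1 and 0.0249 without PRC2 loss tumor 3. Ackr3, Ackr4 and Ccrl2 had limma adjusted p = 0.170, 0.662 and 0.487, and Ackr3 passed without wildtype tumor 2 (0.0237). Of 7 further chemokine ligands in the table that are not among the 32, none passed the test (0 in either direction at an unadjusted p below 0.05), among them the platelet and macrophage ligand Pf4 at 9.40 ± 0.18 (SD, n = 5) and 9.23 ± 0.63 (SD, n = 3).

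Cytokines and transcription factors known to induce chemokines were lower in part. Among 15 cytokines 5 fell (33.3%, against 19.6% of all genes) and 0 rose (at an unadjusted p below 0.05, 7 and 0), with a median log2 difference of -1.32. Il1b, a macrophage cytokine that acts through NF-kB, read 8.56, 9.17, 8.79, 8.85 and 8.05 in wildtype and 2.04, 4.60 and 5.86 in PRC2 loss (log2 difference -4.52, SE 0.760, limma adjusted p = 0.00296). Its groups were far apart, and PRC2 loss tumor 1 was again lowest. Il6 fell by 2.65 and Lta by 2.65 on the log2 scale. Tnf and Ifng did not pass (limma adjusted p = 0.109 and 0.0600). Genes of the NF-kB and interferon pathways were called in both directions. Nfkbia, an inhibitor of NF-kB that the pathway itself induces, rose by 0.81 (limma adjusted p = 0.0255). The subunit gene Nfkb2 fell by 2.22 (limma adjusted p = 0.000549), the kinase gene Chuk by 0.89 (0.000865) and the interferon factor gene Irf1 by 1.35 (0.00577). Chuk missed the threshold under housekeeping centring (log2 difference -0.32, limma adjusted p = 0.0974).

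Markers of several cell types that make or follow chemokines moved with the same comparison, and their part in the ligand differences was not tested. The counts below stand beside 19.6% of all genes called lower and 16% called higher. In the list of 15 macrophage genes 9 (60%) fell while Cd163, a scavenger receptor, rose, with Ms4a7, Itgam and Adgre1 lower by -2.64, -1.73 and -1.91 on the log2 scale. The mean of that list ran from 11.55 to 12.44 in wildtype and from 10.81 to 11.31 in PRC2 loss. None of its members was at 0 in any tumor. Among T cell markers 9 of 11 (81.8%) fell and none rose (11 lower at an unadjusted p below 0.05), among them Ctla4 (-3.41), Foxp3 (-3.26) and Icos (-2.25), with list means from 7.07 to 9.39 in wildtype and from 4.64 to 5.96 in PRC2 loss. Of 8 NK cell markers 6 (75.0%) fell and none rose, among them Eomes (-3.29), Ncr1 (-3.80) and Gzmb (-2.93), with list means from 6.68 to 7.65 and from 3.50 to 5.46. None of the T and NK cell markers was at 0. Of 10 dendritic cell markers 5 (50%) fell and 2 (20%) rose, the latter near the share of all genes. Fscn1 (-1.60) and Clec9a (-2.57) were among those that fell, Zbtb46 (1.51) was among those that rose, and the list means ran from 8.07 to 9.60 in wildtype and from 7.16 to 8.19 in PRC2 loss. The call for Icos was lost without PRC2 loss tumor 2 (limma adjusted p = 0.0533). Of 7 B cell markers, Mzb1 and Jchain (28.6%) fell, the latter not without wildtype tumor 1 or 4 or any PRC2 loss tumor (limma adjusted p from 0.0540 to 0.122). The list means, 5.46 to 9.13 and 3.47 to 6.10, overlapped, with Pax5 at 0 in PRC2 loss tumor 1.

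Neutrophil and mast cell genes went the other way. Of 9 neutrophil markers 7 (77.8%, against 16% of all genes) rose and 1, Mmp9, fell, with Ngp, Camp and S100a8 higher by 6.70, 6.38 and 3.61, while no neutrophil ligand rose and Cxcl2 fell. List means ran from 5.05 to 6.87 in wildtype and from 7.62 to 9.99 in PRC2 loss, and Ly6g and Camp were at 0 in some wildtype tumors. Cxcr2, the receptor of Cxcl1, Cxcl2, Cxcl3 and Cxcl5, read 5.37, 7.03 and 7.92 in PRC2 loss and from 5.32 to 8.08 in wildtype, so it overlapped. Of 8 eosinophil and mast cell markers 5 (62.5%) rose and none fell, among them the mast cell genes Fcer1a (4.24), Mcpt4 (4.10) and Cpa3 (3.76), with list means from 5.18 to 6.45 and from 7.96 to 8.85. The other 3 of these markers did not pass, and 1 of the 8 had a lower mean in PRC2 loss (-1.12). The eosinophil ligands Ccl11 and Ccl24 did not pass. Among other cell types, 6 of 7 Schwann cell markers (85.7%) rose (among them Prx by 5.31 and Mbp by 6.22), with list means from 6.47 to 9.80 in wildtype and from 13.65 to 14.23 in PRC2 loss, the group whose labels name a nerve. Of 7 fibroblast markers Dcn and Lum (28.6%) rose. The other 5 had lower means in PRC2 loss, by up to -2.23, without passing the test, and the list median was -0.07. Fibroblast list means ran from 13.14 to 15.00 in wildtype and from 14.29 to 14.75 in PRC2 loss. Dcn was not called without PRC2 loss tumor 3 (limma adjusted p = 0.0675), nor Lum without any PRC2 loss tumor (0.0578 to 0.0815). None of 7 skeletal muscle markers passed (0 at an unadjusted p below 0.05), but their mean ran from 4.15 to 12.99 in wildtype and from 4.21 to 9.73 in PRC2 loss, highest in wildtype tumors 1 and 2 and PRC2 loss tumor 3.

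**Figure D4:**
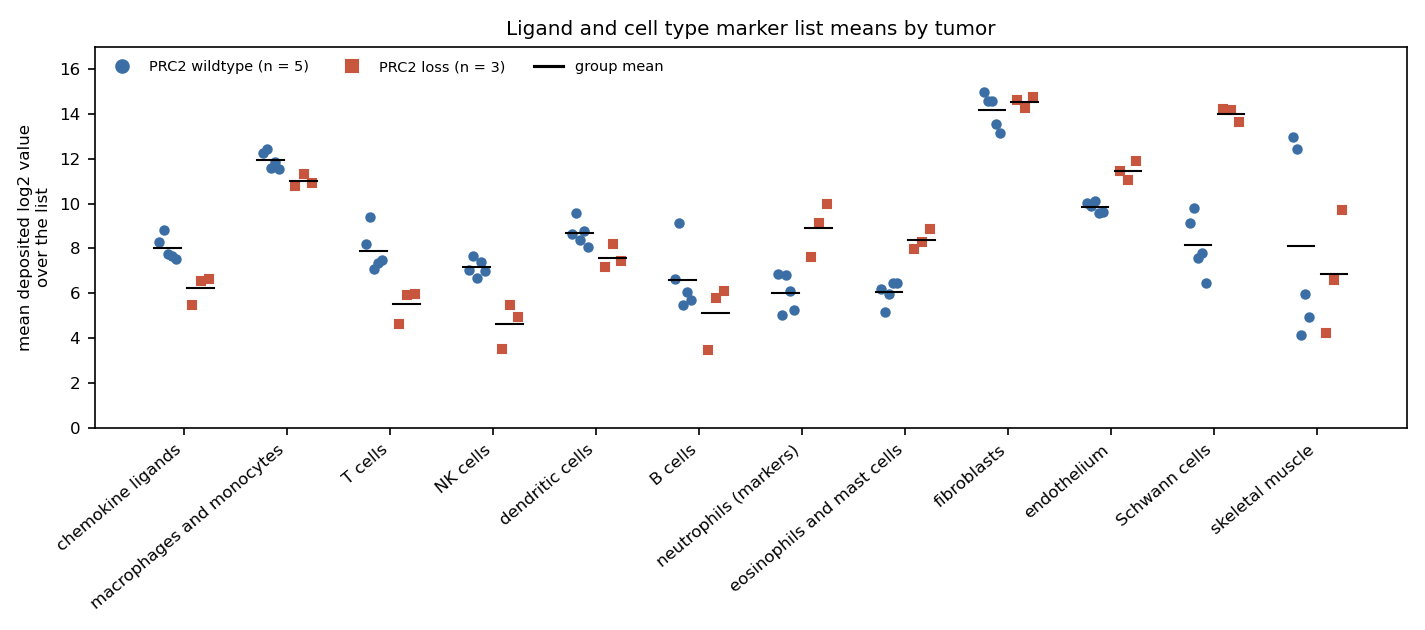
Mean deposited log2 value (vertical axis) over the 32 chemokine ligands and over each list of cell type markers, per tumor, with wildtype tumors as circles, PRC2 loss tumors as squares and bars at group means. Ligand, macrophage, T cell and NK cell means are lower in all 3 PRC2 loss tumors than in all 5 wildtype tumors. Means of the neutrophil, the joint eosinophil and mast cell, the endothelial and the Schwann cell lists are higher.

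Scaling changes how far the ligands stand from other genes. Centring each tumor on 15 housekeeping genes, 9 of which themselves fell and none rose (10 lower and 1 higher at an unadjusted p below 0.05), moved the median of all genes from -0.12 to 0.44 and the split of all calls from 3337 higher and 4087 lower to 7454 higher and 1670 lower. Under that centring 11 ligands were lower and 2, Ccl11 and Ccl27a, were higher, with a ligand median of -0.92. Ccl9, Ccl5 and Cx3cl1 lost their calls there (limma adjusted p = 0.124, 0.0735 and 0.0877).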

How the data were processed

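Per the labels' protocols, Trizol RNA went into poly-A TruSeq libraries. Trim Galore, STAR 2.6, Partek 7.0 and mm10 are listed in the submitters' processing notes, and the sources used here give no order, annotation, counting rule or strand setting. The authors deposited quantile-normalized log2 gene counts with no stated offset. Depth is therefore unknown, and the folds of low genes depend on that unknown offset. Columns were matched to 8 tumors by description.

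After 136 constant genes were left out, 20807 were fitted in limma 3.58.1 (R 4.3.3) with group as the only term and a variance trend, two-sided, with Benjamini-Hochberg adjustment and a threshold of 0.05. The fit was tested on simulated data. Members and lists were chosen with earlier results of these data known. The rule for named genes took all 32 ligands, the receptors of named ligands, and from each other list the 3 called members with the lowest p. Tnf, Ifng, Pf4, Sox10, Cd163, Nfkbia, Mmp9, Ly6g and Pax5 fall outside it and were named after their values were seen. Exon positions came from GENCODE M21. Alternatives were a filter on low genes, pseudocounts of 1 and 16, no trend, array weights, housekeeping centring, animal number as a block or averaged, a replicate block and leaving out each tumor; leaving out wildtype tumors 1 and 2 together was added after seeing the data. Some genes and a motif of these lists are not reported here.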

Additional observations from a re-analysis of the deposited data

Results flagged for a closer look

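Among 55 ligand and receptor genes, 3 had a wildtype tumor set far from the other wildtype tumors by Dixon's ratio; chance marks about 1 in 20 groups. Wildtype tumor 2 stood high for Ccr6, at 6.51, and for Ccr7, at 10.97. Wildtype tumor 3 was the only wildtype tumor above 0 for Cxcr1, at 1.95.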

How the results depend on the processing

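The 5 ligands Ccl8, Ccl22, Cxcl13, Cxcl2 and Xcl1 stayed lower past the threshold in every alternative that tested them. Over 559 combinations of a ligand and 1 of 18 alternatives, 32 lost a call, 16 gained one and 15 changed sign, the last only among ligands without a call. With low genes left out, 4248 of all genes differed, and 8 ligands (15 were tested) and 3 receptors were lower, fewer partly because fewer were tested. Animal numbers averaged left 4226 genes, 11 ligands and 6 receptors. Ligands called higher numbered 1 with array weights and 2 with housekeeping centring. The replicate block, which uses the titles' numbers, gave 1903 genes, 7 ligands lower with a median of -2.19, and 4 receptors. In their deviations from the group means, same-numbered tumors correlated over genes at -0.155, 0.0945 and -0.0482. Not every tumor correlated best with its own number. Deviations within 3 PRC2 loss tumors depend on each other, so these correlations cannot show whether the numbers pair the samples. Leaving out each tumor gave 5547 to 7694 genes, 12 to 15 ligands lower, 0 to 1 higher, medians of -1.86 to -1.41 and 6 to 12 receptors. Signs turned for Ccl24 with array weights (-0.014) and animal numbers averaged (-0.061), for Ccl21a with array weights (0.16), housekeeping centring (0.28) and the replicate block (0.040), for Cxcl12 and Cxcl14 with that block (-0.22 and -0.87), for Ccl20, Cxcr1 and Ccrl2 with housekeeping centring (0.19, 0.40 and 0.12), and without wildtype tumors 1 and 2 for Cxcl9 (0.00031) and Ackr4 (-0.39). With single tumors left out, values ran, across 0, from -0.26 to 1.07 for Cxcl14, -0.017 to 0.71 for Cxcl12, -1.30 to 1.04 for Ccl21a, -0.38 to 0.47 for Ccl24, -0.26 to 0.22 for Cxcr1, -0.12 to 1.15 for Cxcr2 and -0.0501 to 1.02 for Ackr4. The cause was not tested. Depth is unknown and limits what low genes such as Ccl20, Cxcl3 and Cxcl15 can show.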
